A study of Mus musculus with 40 samples.

Results

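The genes described here are those for making, importing and using vitamin B12 (cobalamin) in 5 gut bacteria of mice fed increasing amounts of broccoli. They are the rows of 5 deposited tables whose symbol, without a trailing copy number, begins with btu, cob or cbi, or is metH. The rule found 100 of 16742 features, which is 100 of the 18455 features in all 6 tables of the series. Of the 100, 69 carry the symbol btuD, which also marks ATP-binding subunits of unrelated transporters, so the 31 others are described first and btuD apart. C57BL/6 mice began the Total Western Diet, which has the nutrient profile of a Western diet, at 3 weeks of age and ate it for 6 weeks. For 3 more weeks the controls stayed on it (0%), while the other groups had broccoli powder in it at 0.5%, at 1% or at 2.5%, so the 0% controls carry the same Western diet as the treated groups. RNA from cecal contents gave 40 libraries, 10 per group, and counts were deposited per gene for each bacterium, named as in the tables: F. rodentium, D. muris, X. muris, Acetatifactor and L.bacterium335. The labels do not say which library came from which mouse, so the p-values measure the spread between these libraries, which may be technical in part.

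Cobalamin is a cobalt-bearing ring that only some bacteria and archaea can build. Enzymes named Cbi and Cob contract and decorate the ring and then attach the loop that ends in the lower ligand. An adenosyltransferase (btuR or cobO) turns the vitamin into its coenzyme form. Many gut bacteria build none and import it instead: in bacteria with an outer membrane, BtuB takes it up with energy passed on by TonB, and a transporter of binding protein (BtuF), channel and ATP-binding subunit (BtuD) carries it across the inner membrane. MetH, the B12-dependent methionine synthase, is among the most widespread enzymes that use it.

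The 5 genomes hold different pieces of this pathway. L.bacterium335 has the only ring and loop genes, 12 in number: cbiA, cbiC, cbiD, cbiF, cbiG and cbiH, which act on the ring, and cobD_1, cobD_2, cobP, cobQ, cobS and cobT, which mostly serve the later steps. It also has both adenosyltransferase symbols (btuR and cobO), 2 copies of cobB, 1 metH and 8 btuD copies. Acetatifactor has btuF, btuR, cobB, metH and 54 btuD copies. D. muris has 4 copies of the receptor btuB, with cobB, metH and 1 btuD. F. rodentium has 2 metH copies, cobB and 6 btuD copies, and X. muris has metH alone. The symbol cobB stands both for an amidating enzyme of the corrin ring and for a sirtuin-type protein deacylase, and btuB is often given to TonB-dependent receptors of other cargo; the tables give no product names that would tell these apart.

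Levels are given as CPM, a library's counts on a gene scaled to 1000000 counts on the same genome, so a gene is measured against the rest of its own bacterium. Gene lengths were not used here, so levels are compared between diets and not between genes. In this RNA, more cells of a bacterium and more RNA per cell cannot be told apart. Libraries with under 10000 counts on a genome were left out of its fit and of the CPM values: 3 of 40 for D. muris, 2 for F. rodentium and 7 for X. muris. Median totals on a genome were higher at 2.5% than at 0% in 4 of the 5, with 83651 counts per library at 0% and 525403.5 at 2.5% in L.bacterium335, and lower in F. rodentium, with 511338 and 75068.5. Diet and depth on a genome therefore moved together. In L.bacterium335 the 5 most counted features held a median of 76.8% of the counts at 0% and 18.1% at 2.5%. In X. muris they held 89.9% and 53.3%, and in Acetatifactor 56.8% and 28.7%. In D. muris they held 11.6% and 6.81%, and in F. rodentium 15.6% and 16.4%. The part of depth and of these features in the results below was not tested beyond the fits named beside them.

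The test was edgeR's two-sided quasi-likelihood test over every feature of a genome that passed its low-count filter. Adjusted p-values (Benjamini-Hochberg) under 0.05 are called. Only 11 of the 31 genes other than btuD, and 8 of the 69 btuD copies, passed that filter. At 2.5% against 0%, 5 of the 11 were called, 4 higher and 1 lower, where 39.7% of the 5624 features tested in the 5 genomes together were called, so the count is near the background. At 0.5% against 0% 3 of the 11 were called (cobB_1 and cobB_2 of L.bacterium335 higher, cobB of F. rodentium lower) and at 1% 2 (cobB_1 and cobB_2 again, both higher). A linear trend over the 4 doses was called for 4 of them, all upward: btuB_4, metH_2 of F. rodentium, cobB_1 and cobB_2. Of all features tested in the 5 genomes together, 26.7% were called at 0.5%, 31.1% at 1%, 24.3% in the slope and 6.1% at 2.5% against 0.5%. By genome, the 0.5% comparison called 80.1% in L.bacterium335, 8.47% in F. rodentium and 4.96% in D. muris, the 1% comparison 79.9% in L.bacterium335 and 6.23% in D. muris, and the slope 46.1% in L.bacterium335, 8.3% in D. muris and 5.98% in F. rodentium. The 3 comparisons with 0% share their control libraries. Between 2.5% and 0.5%, edgeR called 0 of the 11, with 3 at an unadjusted p under 0.05. DESeq2 called 6 of 31 without that filter, 2 in Acetatifactor and 4 in L.bacterium335. It called 1320 of the 3895 features with a count in Acetatifactor and 2459 of 4240 in L.bacterium335. Genes that failed the filter are given from a second edgeR fit without it, chosen after seeing the data. That fit called 10 of the 31 at 0.5%, 11 at 1%, 13 in the slope and 2 at 2.5% against 0.5%, where 22.8%, 31.8%, 34.4% and 3.62% of all features were called. At 2.5% against 0% it called 17 of the 31, 11 higher and 6 lower, beside 41.8% of all features: 10 of 17 in L.bacterium335, 4 of 4 in Acetatifactor, 2 of 3 in F. rodentium (10.4% of its features called), 1 of 6 in D. muris (7.46%) and 0 of 1 in X. muris (3.99%), the backgrounds of the first pair standing beside their genes below.

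**Figure D1:**
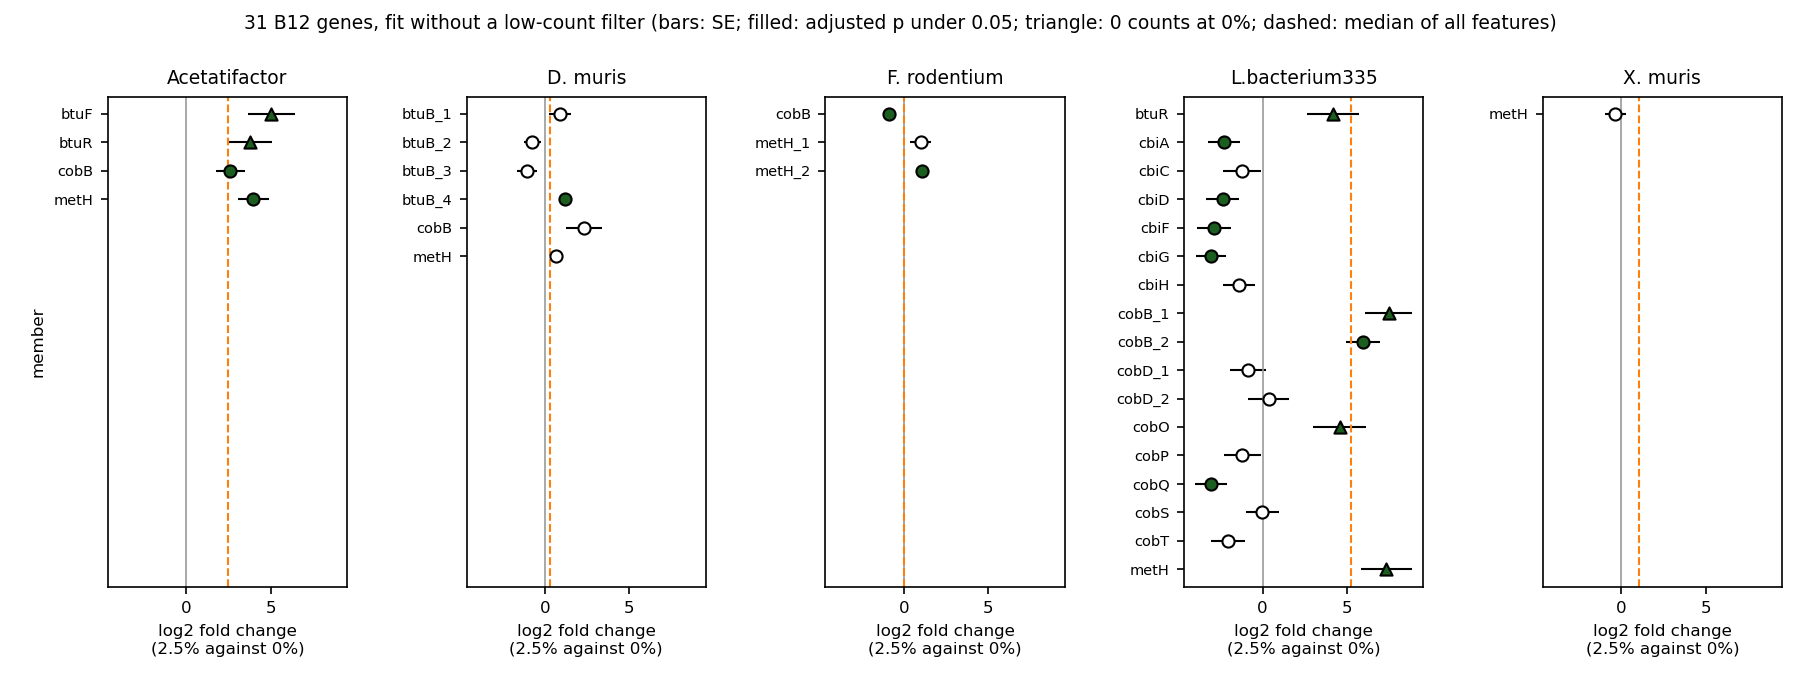
Log2 fold change at 2.5% against 0% broccoli (x axis) of the 31 genes other than btuD (y axis), 1 panel per bacterium, from the fit without a low-count filter, with bars of 1 standard error. Filled symbols passed an adjusted p of 0.05, triangles had 0 counts in all 0% libraries, so that their value depends on the prior count, and the dashed line is the median of all features of the genome. In L.bacterium335 that median is 5.23, over features most of which had 0 counts at 0%, and the ring and loop genes lie near or below 0.

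In L.bacterium335 the 12 ring and loop genes had counts in every diet, and their summed share of the counts on this genome was lower at 2.5% than at 0%. By contrast metH, both cobB copies and the adenosyltransferase genes were at or near 0 counts at 0% and rose. Over the 10 libraries of each group the 12 genes together had 90 counts at 0%, 50 at 0.5%, 164 at 1% and 242 at 2.5%, on 757208, 1049041, 1935713 and 5194973 counts of the genome. Their pooled level was 119 CPM at 0%, 47.7 at 0.5%, 84.7 at 1% and 46.6 at 2.5%.

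Every one of the 12 had a count somewhere in the 0% group, where 25.3% of all L.bacterium335 features (1178 of 4661) had any. Of the 5 other genes, only cobB_2 had one, a single count, and the pathway genes glyA and metK described below had none either. The 0% counts on this genome lay mostly on a few features, as given above, and no source used here says how reads shared between bacteria were counted. Whether the 90 counts at 0% came from L.bacterium335 itself was not tested. The summed ring and loop level ran from 16.8 to 453 CPM over the 0% libraries (median 93.8) and from 7.48 to 122 CPM over the 2.5% libraries (median 19.2), so the groups overlap. Replicates 4 and 10 of the 0% group, with 25 and 22 counts, were the high ones. At 1%, replicate 5 alone held 108 of the 164 counts, and at 2.5% replicate 10 held 77 of the 242. Without the highest library of each group the pooled levels were 96, 39.8, 39.3 and 36.1 CPM.

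In the fit without the low-count filter, 5 of the 12 ring and loop genes fell at 2.5% and 0 rose, where 76.7% of 4240 features were called, 63.4% higher and 13.3% lower. cbiG, whose product opens a lactone on the ring, had 18 counts in 7 of 10 libraries at 0% and 21 counts in 4 of 10 at 2.5%. It fell by 3.05 ± 0.91 in log2 (SE, adjusted p = 0.00217). cobQ, an amidating enzyme of the ring, had 20 counts at 0% and 30 at 2.5%, 20 of them in 1 library, and fell by 3.05 ± 0.95 (edgeR adjusted p = 0.00304). The ring methyltransferase gene cbiF fell by 2.87. Another ring methyltransferase gene, cbiD, fell by 2.37, and cbiA, an amidating enzyme gene, fell by 2.28. The other 7 lay between -2.04 (cobT, which activates the lower ligand) and 0.36 (cobD_2) and were not called. The median of the 12 was -1.71, beside 5.23 over all features tested, most of which had 0 counts at 0%.

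The sign of that fall rests on the scaling. With relative log expression (RLE) factors in place of TMM factors, 2 of the 12 were higher, 0 lower, and their median was 0.91 beside 6.41 for all features. DESeq2 called 0 of the 12, with a median of 0.94 beside 5.62. Without 0% replicate 4, or without 0% replicate 10, 3 of the 12 were called, all lower. In each of these fits the median of the ring and loop genes lay below that of the genome. Dividing summed counts by genome totals, with genes at 0 counts set to a floor of 3 counts over the group, gave a median log2 ratio of -1.15 for the 12, beside 3.05 for the 4031 features of the genome that exceeded the floor in either group. Of those 4031 features, 2893 had 0 counts at 0%, which fixed their direction beforehand, while all 12 genes had counts there. The gap between the medians, here and in the fits above, is partly set by that difference. Features counted at 0% were not compared alone.

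**Figure D2:**
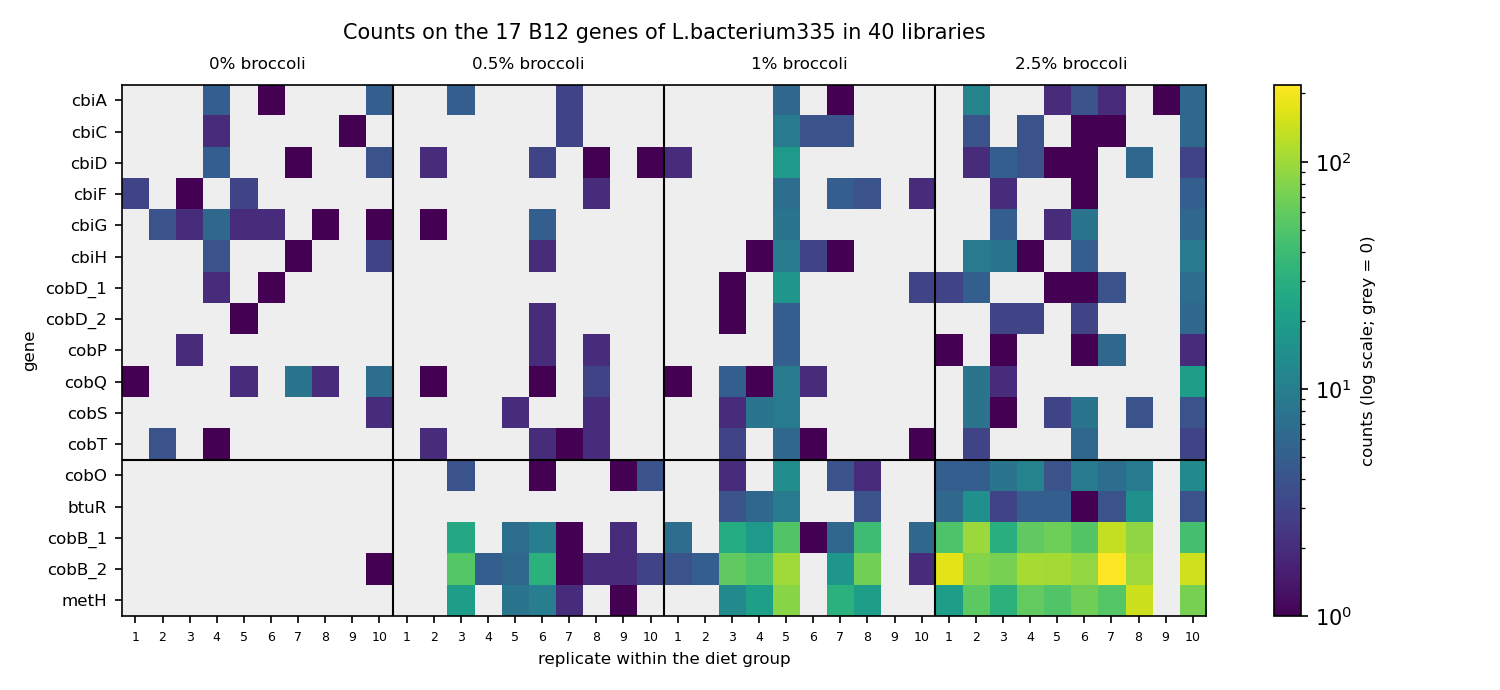
Raw counts on the 17 B12 genes of L.bacterium335 other than btuD (y axis) in the 40 libraries (x axis, replicates within the diet group), on a logarithmic colour scale with grey for 0. The 12 ring and loop genes above the horizontal line have scattered counts in all diets, while the 5 genes below it have 1 count in all at 0%. These 5 have counts in 0 (btuR) to 8 (cobB_2) of 10 libraries at 0.5% and in 4 to 8 at 1%. At 2.5% each has counts in 9 of 10, all but replicate 9.

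The 5 other genes of L.bacterium335 rose. metH, the methionine synthase, had 0 counts in all 10 libraries at 0%, then 41, 169 and 559 counts at 0.5%, 1% and 2.5%. Its level at 2.5% ran from 0 to 184 CPM (median 106), with 9 of 10 libraries above every 0% library. It was at least 27.2-fold higher at 2.5% than the floor of 3 counts over the 0% group allows (edgeR without the filter, adjusted p = 1.76e-05). cobB_2 had 1 count at 0%, in replicate 10, and 104, 309 and 1095 counts with rising broccoli. The ratio of its share at 2.5% to that at 0% was 160, with an exact 95% counting interval from 28.6 to 6310 (edgeR adjusted p = 4.61e-09, log2 fold change 6.40 ± 0.96, and 8.35 without 0% replicate 10).

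cobB_1 had 0 counts at 0% and 46, 158 and 618 counts with rising broccoli. It was at least 30-fold higher at 2.5% (edgeR adjusted p = 5.43e-08). Both cobB copies were called at 0.5% (adjusted p = 1.07e-05 for cobB_1 and 4.2e-07 for cobB_2) and at 1%. The filtered fit called 92.8% of the 1384 L.bacterium335 features tested at 2.5% against 0%, so 2 of 2 is near the background. With 0 and 1 counts at 0%, both copies passed that filter through the broccoli groups, which fixes their direction. The corrinoid adenosyltransferase genes were sparse: cobO had 0, 10, 22 and 71 counts over the 4 diets and btuR 0, 0, 23 and 58. cobO was at least 3.45-fold and btuR at least 2.82-fold higher at 2.5% (edgeR without the filter, adjusted p = 0.00711 and 0.0123). With 0 or 1 counts at 0%, the direction of all 5 genes was fixed beforehand. All 5 were also called higher with RLE factors and by DESeq2, which called 2869 of 4240 features of this genome. With RLE factors, 1147 of the 1384 features that passed the filter were called higher. The call of metH ended when the genome total was a covariate (edgeR adjusted p = 0.0773). Replicate 9 of the 2.5% group stood apart, with 0 counts on all 5 genes and 1 on the ring and loop genes. Intervals, floors and bounds cover counting error only, since reads from amplified libraries are not independent molecules.

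**Figure D3:**
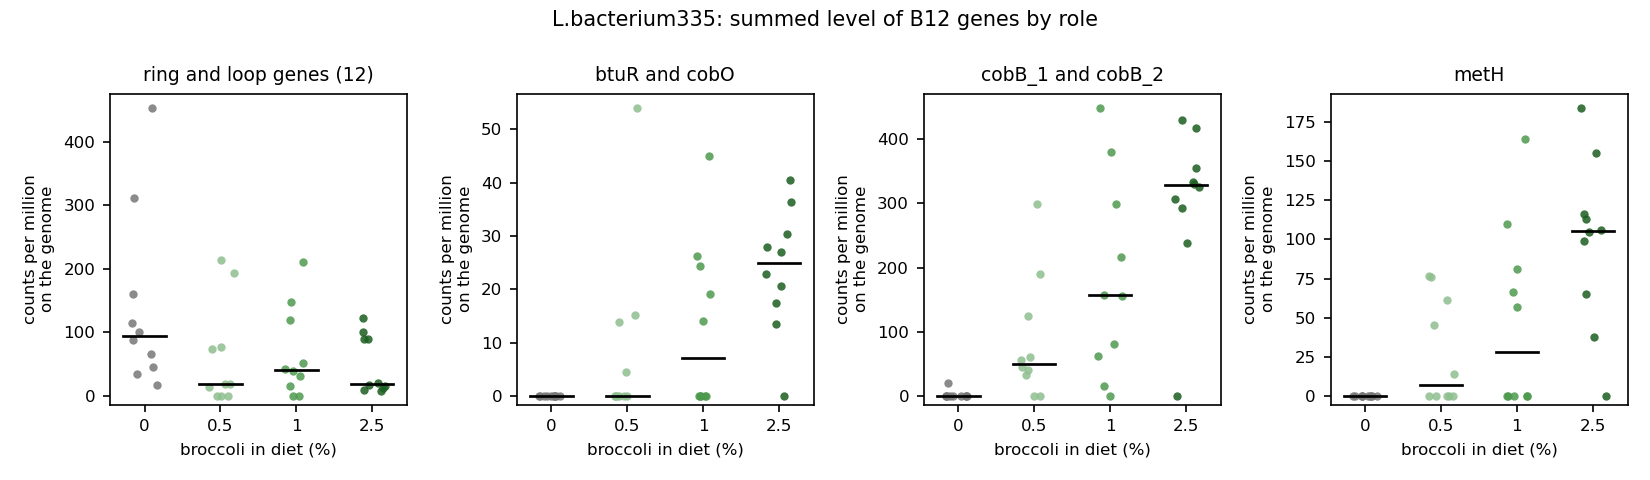
Summed level of the B12 genes of L.bacterium335 by role (y axis, CPM) in 10 libraries per diet (x axis, percent of broccoli), with a line at the median. The ring and loop genes go from a median of 93.8 at 0% to 19.2 at 2.5%, while btuR with cobO, both cobB copies and metH have medians of 0 at 0% and 24.9, 329 and 106 at 2.5%.

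The methionine synthase gene is the one member that all 5 genomes share, and its response differed from genome to genome in size and call; the differences between genomes were not tested. In Acetatifactor metH had 3 counts at 0%, in 2 of 10 libraries, then 17, 85 and 353 counts at 0.5%, 1% and 2.5%. Its level ran from 0 to 60.3 CPM at 0% (median 0), from 51.8 to 216 at 1% (median 108) and from 0 to 466 at 2.5% (median 261). At 2.5%, 9 of 10 libraries were above every 0% library and replicate 8 was at 0. The ratio of summed shares was 33.2, with a 95% counting interval from 11.3 to 162, and the fit without the filter gave 3.97 ± 0.90 in log2 (adjusted p = 0.000233), or 5.15 without 0% replicate 9. In that fit the median over all features of this genome was 2.45, and 57.3% of 3895 were called higher. With 3 counts at 0%, little room was left for a fall. The call of metH ended when the genome total was a covariate (edgeR adjusted p = 0.0539, log2 fold change 3.02).

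In F. rodentium, metH_2 rose. Its level ran from 7.07 to 145 CPM over the 10 libraries at 0% (median 99.8), from 41.3 to 281 at 0.5%, from 62.7 to 188 at 1% and from 147 to 308 CPM over the 8 libraries at 2.5%. All 8 libraries at 2.5% were above every 0% library, while the groups at 0.5% and 1% overlapped the 0% group. Its log2 fold change at 2.5% was 1.11 ± 0.31 (adjusted p = 0.0184), where 9.41% of 1689 features of this genome were called. The slope was 0.42 ± 0.12 per percent of broccoli (edgeR adjusted p = 0.0263). The call ended when only libraries with at least 50000 counts were used (adjusted p = 0.0515) and when the genome total was a covariate (adjusted p = 0.0585), at fold changes of 1.08 and 1.11.

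The other copy, metH_1, had fewer counts, 86 at 0% and 60 at 2.5%, and was at 0 in 3 of the 8 libraries at 2.5%. Its log2 fold change of 1.04 ± 0.61 was not called (edgeR adjusted p = 0.277) and was 0.65 without 2.5% replicate 10. No source used here says how reads shared by both copies were counted, so the split between metH_1 and metH_2 is uncertain.

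In D. muris, metH ran from 151 to 1030 CPM at 0% (median 510) and from 520 to 1160 at 2.5% (median 674), with overlapping groups. Its log2 fold change was 0.55 ± 0.30 and was not called (edgeR adjusted p = 0.276). In X. muris, metH had 21 counts at 0%, 13 of them in replicate 7, and 190 at 2.5%. Over the 7 and 9 libraries kept, its level ran from 0 to 283 CPM (median 52) and from 0 to 240 (median 146), and the log2 fold change of -0.68 ± 0.63 was not called (edgeR adjusted p = 0.531), where 11% of 670 features were; it was -0.16 without 0% replicate 7. The fitted sign goes against that of the CPM medians; with 5 stable RNA features left out of this genome, TMM scaling put the median feature at 0.51 and RLE scaling at 0.25.

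**Figure D4:**
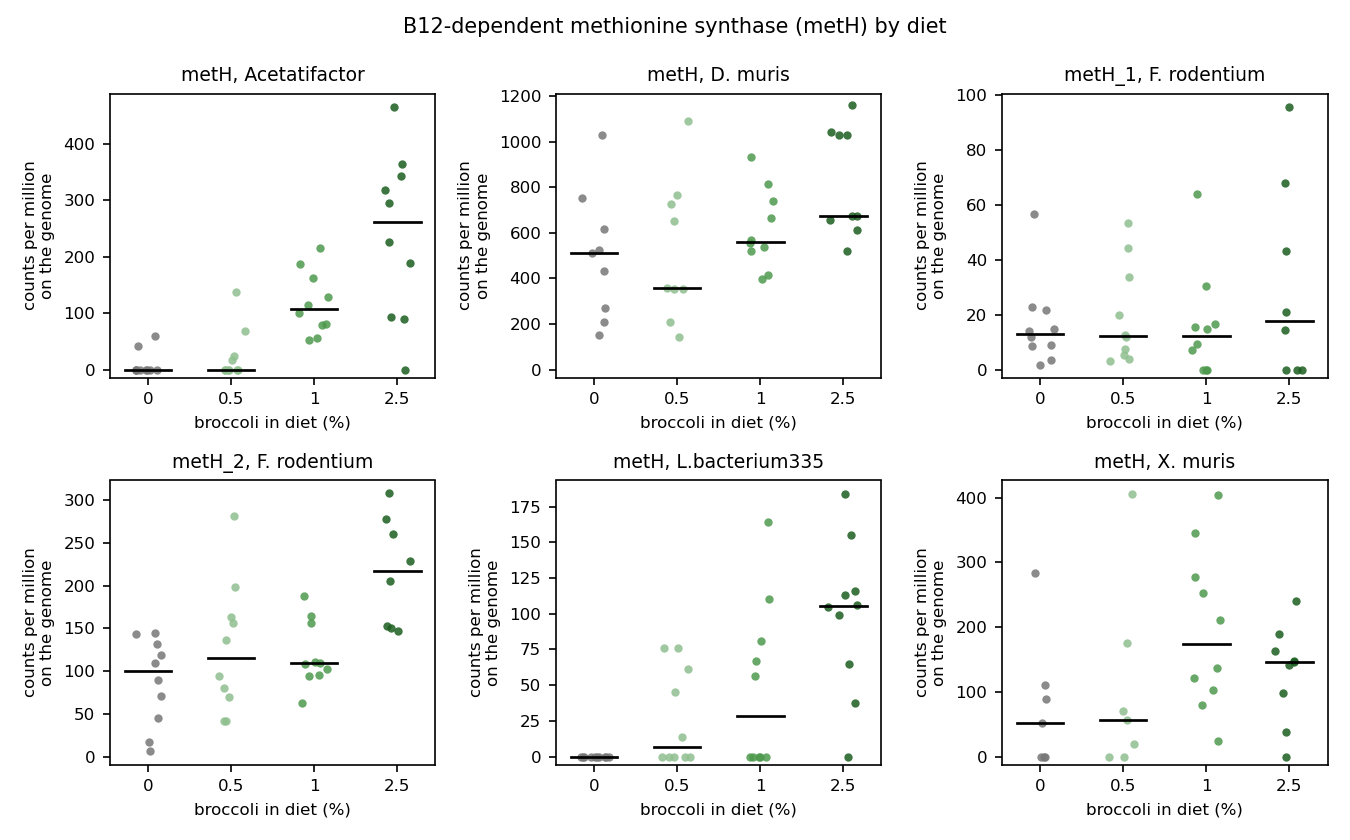
Level of the 6 metH rows (y axis, CPM; the scale differs by panel) in the libraries kept for each bacterium, by percent of broccoli (x axis), with a line at the median. The 8 libraries at 2.5% for metH_2 of F. rodentium, from 147 to 308, all lie above the 0% libraries, and metH of L.bacterium335 is at 0 in all 10 libraries at 0%.

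Among the importers, 1 of the 4 btuB receptor copies of D. muris rose. btuB_4 ran from 0 to 392 CPM over 9 libraries at 0% (median 217), from 201 to 657 at 0.5% (median 272), from 127 to 530 at 1% (median 325) and from 157 to 805 over 9 libraries at 2.5% (median 544). At 2.5%, 8 of 9 libraries were above the mean of the 0% group, though the groups overlapped. It rose by 1.10 ± 0.35 in log2 (adjusted p = 0.0354), with a slope of 0.37 ± 0.12 per percent (adjusted p = 0.047), where 10.6% of 1108 features were called at 2.5% against 0%.

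The other btuB copies pointed in different directions and none was called. btuB_1 had a median of 87.9 CPM at 0% and 190 at 2.5% and a log2 change of 0.78 ± 0.66 (adjusted p = 0.529), which was 1.86 without 0% replicate 4, the highest library of its group. btuB_2 had medians of 320 and 325 CPM, with 2 of 9 libraries at 0% at 1810 and 1880 CPM, and a fold change of -0.88 ± 0.57 (edgeR adjusted p = 0.381), or -0.49 without 0% replicate 9. btuB_3 had medians of 221 and 94.2 CPM and a fold change of -1.19 ± 0.59 (edgeR adjusted p = 0.235). At 0.5% and at 1%, edgeR called 0 of the 5 D. muris members tested, with 1 at an unadjusted p under 0.05 in each, and DESeq2 called 0 of 6. The call of btuB_4 ended with no minimum on library totals (adjusted p = 0.0565), with the genome total as a covariate (adjusted p = 0.573, fold change 0.96), and in 8 of 37 fits that left out 1 library: 0% replicates 3, 6, 7 and 10 and 2.5% replicates 2, 3, 5 and 8, with adjusted p from 0.0505 to 0.0795.

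**Figure D5:**
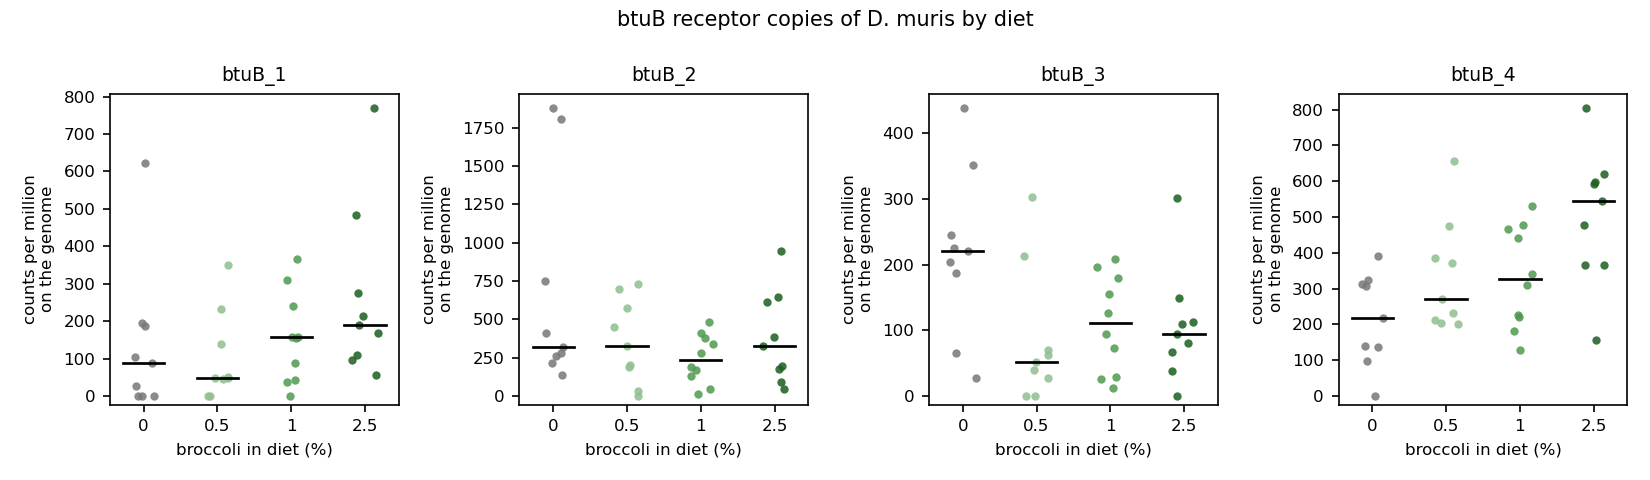
Level of the 4 btuB receptor copies of D. muris (y axis, CPM; the scale differs by panel) in the 9 or 10 libraries kept per diet (x axis, percent of broccoli), with a line at the median. The median of btuB_4 goes from 217 at 0% to 544 at 2.5%, and that of btuB_3 from 221 to 94.2.

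Acetatifactor holds btuF, the binding protein of the inner membrane transporter. It had 0 counts at 0%, then 21, 43 and 122 counts, with 7 of 10 libraries at 2.5% holding one, and was at least 11.5-fold higher at 2.5% (edgeR without the filter, adjusted p = 0.00144). The adenosyltransferase gene btuR had 0, 3, 16 and 31 counts and was at least 2.92-fold higher (edgeR without the filter, adjusted p = 0.0104). cobB had 5 counts at 0%, 4 of them in replicate 8, and 34, 64 and 230 counts with rising broccoli. Its log2 fold change was 2.61 ± 0.88 (edgeR without the filter, adjusted p = 0.00742), or 4.50 without 0% replicate 8, and was not called with the genome total as a covariate (1.14, adjusted p = 0.451). With metH, 4 of the 4 Acetatifactor genes other than btuD were higher in that fit, where 65.2% of 3895 features were called and 57.3% were higher. btuF and btuR had 0 counts at 0%, so their direction was fixed beforehand. With genes at 0 counts set to the floor, the median log2 ratio of the 4 at 2.5% was 3.61, beside 2.61 for the genome. Of the 3735 features behind the median of the genome, 1289 had 0 counts at 0% too.

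F. rodentium cobB fell. Its level ran from 316 to 812 CPM at 0% (median 476), from 132 to 330 at 0.5% (median 283), from 209 to 593 at 1% (median 384) and from 68.3 to 562 at 2.5% (median 273). At 0.5% 6 of 10 libraries were below every 0% library, and at 2.5% 5 of 8 were. It fell by 0.88 ± 0.26 in log2 at 0.5% (edgeR adjusted p = 0.0271, where 8.47% of features were called) and by 0.87 ± 0.29 at 2.5% (adjusted p = 0.0485). At 1% the fold change of -0.46 ± 0.26 was not called (edgeR adjusted p = 0.624). The call at 2.5% was lost with RLE factors (adjusted p = 0.0739), in libraries of at least 50000 counts (0.143), without the libraries whose titles are numbered 76 to 81 (0.0862) and once the genome total was a covariate (0.0523). It was also lost in 22 of 38 fits that left out 1 library, with fold changes from -1.14 to -0.69 over the 38. RLE factors moved the genome's own split from 91 higher and 68 lower to 111 and 45. D. muris cobB was counted 2, 20, 14 and 50 times over the 4 diets and was not called (edgeR without the filter, adjusted p = 0.19).

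The btuD copies were mostly sparse. Acetatifactor has 54, of which 23 had a count at 0% and 52 at 2.5%; btuD_34 and btuD_48 had none in any library. Their summed level had a median of 797 CPM at 0% and of 1700, 2560 and 5000 CPM at 0.5%, 1% and 2.5%. In the fit without the filter 39 of 52 were higher at 2.5% and 1 lower, beside 65.2% of all features called. With 0 counts set to the floor the median log2 ratio of the 52 was 2.79, beside 2.61 for the genome. Of the 52, 29 had 0 counts at 0%, which fixed their direction beforehand. The 2 copies that passed the filter both rose, where 77% of 773 features were called. btuD_20 had counts at 0% only in replicates 3 and 5 (4 and 1), so it passed the filter through the broccoli groups, which largely fixes its direction.

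btuD_20 of Acetatifactor ran from 0 to 104 CPM at 0% (median 0) and from 0 to 1780 at 2.5% (median 727), and rose by 5.02 ± 0.88 (edgeR adjusted p = 1.58e-05), or by 6.85 without 0% replicate 3. btuD_16 had medians of 34.8 and 453 CPM and rose by 1.77 ± 0.68 (edgeR adjusted p = 0.0181), or by 2.34 without 0% replicate 3. With the genome total as a covariate the fold change of btuD_16 was 0.69 (adjusted p = 0.554). Replicate 8 of the 2.5% group had 0 counts on both.

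Of the 8 btuD copies of L.bacterium335, 4 had a count at 0%, and without the filter 4 were higher at 2.5% and 3 lower, where 63.4% of all features were called higher and 13.3% lower. The 4 higher copies (btuD_2, btuD_3, btuD_6 and btuD_7) had 0 counts at 0%, which fixed their direction beforehand. Of the 3 lower, btuD_5 rests on a single count, in the 0% group, and btuD_8 had 13 counts at 0% and 29 at 2.5%. btuD_3 had 0, 77, 179 and 854 counts over the 4 diets and was at least 41.5-fold higher at 2.5% (edgeR adjusted p = 1.5e-08). btuD_1 was among the 208 of 1384 tested features (15%) called lower. Its level had a median of 53.7 CPM at 0% and 23.5 at 2.5%, and it fell by 1.55 ± 0.73 (edgeR adjusted p = 0.0382). That direction turned with RLE factors (0.55), with DESeq2 (0.56) and once the genome total was a covariate (1.24), and the call was lost without 0% replicate 1, 3, 5, 8 or 9 in turn, with adjusted p from 0.0528 to 0.0908. In F. rodentium edgeR called 0 of 4 tested btuD copies at 2.5%, with 0 at an unadjusted p under 0.05, and DESeq2 0 of 5. At 0.5% btuD_3 of F. rodentium fell by 0.64 ± 0.20 (edgeR adjusted p = 0.0377), with all 10 libraries below the mean of the 0% group. The single btuD of D. muris had 9 counts at 0% and 49 at 2.5% and did not pass the filter; without it, its log2 fold change of 0.76 ± 0.9 was not called (edgeR adjusted p = 0.669), nor was it by DESeq2.

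Other genes of the pathway were taken from a list by symbol that covers B12-dependent enzymes and their partners, the methionine and folate genes around metH, precursor genes and the lower ligand gene. No product names were given for these symbols either. Whether mtaB, which the list counts among those enzymes, marks a B12-dependent enzyme in these genomes is not known. At 2.5% against 0%, 5 of the 5 that passed the filter in L.bacterium335 were higher, 1 of 7 in D. muris was lower, 1 of 4 in X. muris was higher, edgeR called 0 of 8 in F. rodentium (1 at an unadjusted p under 0.05, and 0 of 8 by DESeq2), and none of the 5 in Acetatifactor passed the filter. Over all features tested, 77.8% were higher in L.bacterium335, 6.68% lower in D. muris and 9.55% higher in X. muris. The 5 of L.bacterium335 (bluB, glyA, metK, metN and metQ) had 2 counts at 0% between them, both on bluB, so they passed the filter through the broccoli groups, which fixes their direction. With 0 counts set to the floor, the 9 listed genes of that genome had a median log2 ratio of 4.96 at 2.5%, beside 3.05 for the genome. In L.bacterium335 bluB, which makes the lower ligand of B12, had 2 counts at 0% and 306, 822 and 2618 with rising broccoli, a ratio of 191 at 2.5% (95% counting interval 52.8 to 1580; edgeR adjusted p = 1.96e-11). glyA, which supplies one-carbon units to folate, had 0 counts at 0% and 3443 at 2.5%, at least 167-fold higher (edgeR adjusted p = 7.46e-13). metK, which turns methionine into S-adenosylmethionine, had 0 and 1967 counts, at least 95.6-fold higher (edgeR adjusted p = 2.94e-10).

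Methylmalonyl-CoA mutase is the other well known B12-dependent enzyme of such bacteria. mutB of D. muris, a subunit of the mutase, fell by 0.56 ± 0.18 (edgeR adjusted p = 0.04, and 0.0382 by DESeq2). That call was lost without the low-count filter (0.143), where 50% of features had to be counted (0.0935), without the libraries numbered 76 to 81 (0.0857), with the genome total as a covariate (0.828, fold change -0.30) and in 15 of 37 fits that left out 1 library (up to 0.107). mce of X. muris, the epimerase next to the mutase in the same pathway, rose by 1.65 ± 0.58 (edgeR adjusted p = 0.0466, and 0.0298 without the filter). That call was lost by DESeq2 (1.42, adjusted p = 0.113), with RLE factors (0.126), where 50% of features had to be counted (0.582), without the libraries numbered 76 to 81 (0.0548), with the genome total as a covariate (0.788, fold change 0.63) and in 23 of 33 fits that left out 1 library (up to 0.122). The mutase gene of X. muris, mutA, had 18 counts at 0% and 811 at 2.5%. Its log2 fold change of 1.4 ± 0.56 was not called (edgeR without the filter, adjusted p = 0.126). The difference between the genomes was not tested.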

How the data were processed

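RNA of cecal contents was depleted of ribosomal RNA and sequenced, per the labels' protocols. The authors deposited raw counts per feature, whole numbers with no normalization, in 1 table per bacterium; no source used here names the aligner, the counting program, the genome builds or the handling of reads shared by copies or genomes. All 40 columns of each table matched 1 library by title. Over the 5 tables a library held 232791 to 5107126 counts (median 820308.5). None of 180 pairs of libraries within a group were identical, and the smallest chi-square per degree of freedom was 1.75.

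Each genome was fitted alone with edgeR 4.0.16 (R 4.3.3): libraries with at least 10000 counts, filterByExpr, TMM factors, all 4 diets in 1 fit, Benjamini-Hochberg adjustment within genome and contrast. In X. muris 5 stable RNA features were left out. Standard errors were derived from F and the fold change. DESeq2 1.42.0 and RLE factors were alternatives, and the fit was checked on simulated counts. Genes were named by rule: called at 2.5% or in the slope (at most 8 per genome by p, and 3 btuD), the 2 highest members of each genome, every metH and btuB, and up to 3 other pathway genes called at 2.5%. btuF, btuR, cobO, the ring and loop genes, cobB of D. muris, metN and metQ, mutA of X. muris, and all other btuD copies given by name were named after their values were seen. The members and lists were chosen with earlier results of these data known.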

Additional observations from a re-analysis of the deposited data

Results flagged for a closer look

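In 69 groups of 4 to 10 libraries, 12 held a named gene whose highest library stood far from the next. The cutoff gives about 1 in 20 by chance only for normally distributed values. Many of these levels are at or near 0 CPM, so the 12 groups cannot be set against that rate. In Acetatifactor these were btuD_20 at 0% (replicate 3, 104 CPM, the next at 30.7), cobB at 0% (replicate 8, 167 CPM, the next at 26) and metH at 0.5% (replicate 8, 137 CPM, the next at 68.6). In D. muris they were btuB_1 at 0% (replicate 4, 623 CPM, the next at 196) and btuB_3 at 2.5% (replicate 4, 301 CPM, the next at 150). In F. rodentium both were metH_1, at 0% (replicate 5, 56.8 CPM, the next at 22.8) and at 1% (replicate 1, 64 CPM, the next at 30.6).

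In L.bacterium335, cobB_2 at 0% had its only count in replicate 10 (20.6 CPM, the others at 0). btuD_1 of L.bacterium335 was high at 0.5% in replicate 7 (214 CPM, the next at 112) and at 2.5% in replicate 9 (118 CPM, the next at 32.9). In X. muris, metH was high at 0% in replicate 7 (283 CPM, the next at 110) and at 0.5% in replicate 2 (406 CPM, the next at 175).

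The table of Alistipes was not used in the comparisons. Its 7 B12 genes other than btuD had 2 counts in all 0% libraries, 60 at 0.5%, 160 at 1% and 1721 at 2.5%, on 1620, 4667, 11846 and 161531 counts of the genome.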

How the results depend on the processing

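No paired analysis was possible because replicates were only numbered in accession order. Alternatives that changed a count of called genes other than btuD at 2.5% against 0% were these. In Acetatifactor, 0 became 4 without the low-count filter and 4 with DESeq2. In D. muris, 1 became 0 with no minimum total and 0 when the genome total was a covariate. In F. rodentium, 2 became 1 with RLE factors, 0 at 50000 counts or more, 1 without libraries numbered 76 to 81, and 0 with the covariate. In L.bacterium335, 2 became 10 without the filter and 5 with DESeq2. Over all features at 2.5% against 0%, DESeq2 called 2553 of 3895 in Acetatifactor and 2869 of 4240 in L.bacterium335. With btuD counted too, Acetatifactor had 2 and L.bacterium335 had 4.

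Over the 5 genomes, 3 called at 0.5% became 10 without the filter, 6 with DESeq2 and 6 with btuD. At 1%, 2 became 11, 8 and 5 likewise. Of the 4240 L.bacterium335 features, DESeq2 called 2086 at 0.5% and 2407 at 1%. Of the 3895 in Acetatifactor it called 1033 and 1782, and in F. rodentium it called 246 at 0.5%. At 2.5% against 0.5%, 0 became 2 with RLE factors, 2 without the filter and 6 with DESeq2. In that comparison RLE factors moved the 1384 tested L.bacterium335 features from 10 higher and 173 lower to 1092 higher and 19 lower. For the slope, 4 became 13 without the filter, 11 with DESeq2, 0 at 50000 counts or more, 1 where 50% of features had to be counted, and 0 with the covariate. Where a genome kept no 0% library at 50000 counts or 50% of features, its slope ran over the broccoli groups alone. Those values therefore do not test the trend from 0%. In the slope DESeq2 called 2918 of 4240 features in L.bacterium335, 2538 of 3895 in Acetatifactor, 131 in D. muris and 210 in F. rodentium. For the ring and loop genes, 5 lower became 2 higher with RLE factors, 0 called with DESeq2, 2 at 50000 counts or more, 3 without libraries 76 to 81 and 1 with the covariate. Reversed fold changes were those of btuD_1 of L.bacterium335 (0.55, 1.24 and 0.56), and in D. muris, none of them called, metH (-0.28) and btuB_1 (-0.76) with the covariate and btuB_2 (0.02) where 50% of features had to be counted. Beyond fewer or more genes tested, the cause was not tested.

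Leaving out 1 library at a time gave counts of 0 to 1 in D. muris, of 1 to 2 in F. rodentium, of 2 to 3 in L.bacterium335, and of 0 in every fit of X. muris and of Acetatifactor. Over the 5 genomes it gave 3 to 4 at 0.5%, 2 to 3 at 1%, 0 to 0 at 2.5% against 0.5%, 2 to 6 for the slope (2 without 2.5% replicate 5 or 10) and 3 to 6 ring and loop genes. No 0% library of Acetatifactor, D. muris or X. muris had 50000 counts, and none of Acetatifactor or L.bacterium335 had 50% of features counted. Those settings therefore gave no comparison with 0% there, and only a slope without the 0% group.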
